A study of Mus musculus with 8 samples.

Results

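The transcripts of 8 cyclins (*Ccnd1*, *Ccnd2*, *Ccnd3*, *Ccne1*, *Ccne2*, *Ccna2*, *Ccnb1* and *Ccnb2*) and of the transcription factor *E2f1* were followed from normal mouse prostate to prostatic intraepithelial neoplasia (PIN) and prostate cancer (PCa). These 9 genes were taken by their symbols from a table of 27036 genes, and all 9 were measured. RNA had been sequenced from bulk tissue after removal of ribosomal RNA, in 3 WT, 3 PIN and 2 PCa libraries, which are called here by group and replicate number. WT stands for prostates of control mice, which carried the Rosa26 mTmG reporter and the Osr1-Cre driver (R26mTmG/+:Osr1Cre/+) but no transgene. PIN and PCa tissue came from hARtg-Osr1Cre mice (R26mTmG/hAR:Osr1Cre/+), in which Cre made under *Osr1* control switches on the hARtg transgene in the Rosa26 locus, also beside an mTmG allele, and was picked under the microscope for its atypical or tumor cells. The animals were of a mixed C57BL/6 and 129S1/SvImJ background. Controls were matched for sex and age, and the age of these animals is not given in the sources used here. The paper reports that cancer lesions began at a later age than PIN lesions in such mice. Lesion stage and age therefore cannot be told apart here, and which stage the WT animals were matched to is not stated. Nothing in the labels says whether the replicates of a group came from separate animals, so p-values measure the spread between these libraries, which may be partly technical.

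Cyclins are the regulatory subunits of cyclin-dependent kinases (CDKs). D-type cyclins pair with CDK4 and CDK6 in G1 and phosphorylate the retinoblastoma protein, which then releases E2F factors such as E2F1. Freed E2F switches on the E-type cyclins, cyclin A2 and genes of DNA replication. E-type cyclins drive CDK2 into S phase, cyclin A2 acts through S phase and G2, and the B-type cyclins drive CDK1 into mitosis. In resting cells the DREAM complex keeps many mitotic genes off through promoter elements called CHR (cell cycle genes homology region), often found near CCAAT boxes, which bind NF-Y. Mature prostate epithelium divides little, so the later cyclins are ordinarily scarce there.

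Promoter sequence was at hand for 5 of the 9 genes (*Ccnb1*, *Ccnb2*, *Ccnd3*, *Ccne1* and *E2f1*), in 6 windows from 250 bases before to 50 bases after a transcription start. *Ccna2*, *Ccnd1*, *Ccnd2* and *Ccne2* had no entry. The windows were searched on both strands for the CHR element (TTTGAA or TTCGAA, the second of which reads the same on both strands), for CCAAT, and for the E2F site (TTTCCCGC, TTTCGCGC, TTTGCCGC or TTTGGCGC). Shown here are the 125 bases before and the 25 bases after the start for both B-type cyclins, which rose together in PCa, and for *Ccne1*, which did not pass the test, all from RefSeq on GRCm38.p6, on the minus strand of the genome and written 5′ to 3′ along the gene, with motif matches in capitals.
*Ccnb1*, chr13:100786462-100786611: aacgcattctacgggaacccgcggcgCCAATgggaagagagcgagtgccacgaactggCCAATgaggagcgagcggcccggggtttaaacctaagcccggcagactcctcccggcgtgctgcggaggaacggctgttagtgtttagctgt
*Ccnb2*, chr9:70421530-70421679: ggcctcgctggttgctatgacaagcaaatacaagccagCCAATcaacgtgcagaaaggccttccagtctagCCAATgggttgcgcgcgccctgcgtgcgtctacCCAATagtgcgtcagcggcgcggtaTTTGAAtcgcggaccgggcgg
*Ccne1*, chr7:38107466-38107615: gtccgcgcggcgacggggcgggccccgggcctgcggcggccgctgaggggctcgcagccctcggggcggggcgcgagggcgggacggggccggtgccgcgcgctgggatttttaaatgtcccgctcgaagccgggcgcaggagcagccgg

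The *Ccnb2* window held 3 CCAAT boxes, at -87, -54 and -21, and CHR matches at position 5 (counting the start as 1) and, outside the stretch shown, at -167. The *Ccnb1* window held 2 CCAAT boxes, at -99 and -67, and no CHR match. Of *Ccnd3* 1 of 2 windows held a CCAAT box, at -108, and the windows of *Ccne1* and *E2f1* held none of these letters. Over all 32851 windows of the table, 37.4% held a CCAAT box, 11.7% held at least 2 and 3.37% at least 3. A CHR match was found in 19.2%, a CHR match with a CCAAT box in 7.52%, and an E2F site in 2.26%. Only these exact letters were searched, so a window without a match may still hold another form of the site. These matches are descriptions of the sequence, and factor binding was not measured.

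The libraries held 21751803 to 29730420 counted reads. Levels are given as CPM, which are counts set to a common library size with TMM (a correction for library composition), or as TPM. TPM are counts per exon length set to a common sum in each library, without TMM. Only TPM allow genes to be compared with each other. A gene was called when its fitted log2 fold change exceeded 1 in size and its adjusted p (edgeR quasi-likelihood test, Benjamini-Hochberg over the 14034 genes tested) was under 0.05, and all 9 genes passed the expression filter in the 6 WT and PIN libraries alone. The libraries differed in tissue makeup. The summed level of 6 smooth muscle markers was 2021 to 4863 CPM in WT and 3197 to 5859 CPM in PIN, against 42.5 CPM in PCa 1 and 19.8 CPM in PCa 2, with none of the 6 at a count of 0. *Pbsn* (probasin, an androgen-driven secretory protein of prostate luminal cells) stood at 6552 to 23968 CPM in WT and PIN and at 8.53 and 60.8 CPM in PCa. Basal keratin *Krt15* was at 368 CPM in PCa 1 and 1.13 CPM in PCa 2. WT 1 and both PCa libraries held seminal vesicle transcripts, at 15880, 3840 and 883 CPM summed over 7 genes, against 0.634 to 88.7 CPM in the others. The labels number the WT libraries in other series than the PIN and PCa libraries, so that difference and genotype cannot be told apart, whereas PIN and PCa were numbered in 1 series.

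Cyclins of S phase, G2 and mitosis set PCa apart. *Ccna2*, *Ccnb1* and *Ccnb2* were 11.5-fold, 15.1-fold and 15.3-fold higher in PCa than in WT. *Ccnd1*, *Ccne1*, *Ccne2* and *E2f1*, which act in G1 or at entry into S phase, were 3.19-fold to 4.22-fold higher, with both PCa libraries above all WT libraries, and did not pass the test. The fitted changes of *Ccnd2* and *Ccnd3* were below 0 and not called. Thus 3 of the 9 genes were called higher in PCa than in WT, where 4.35% of all genes tested were called higher and 4.18% lower. In PCa against PIN 4 of the 9 were called higher (background 2.55% higher and 3.17% lower), with *Ccne2* as the addition. The latter count was 2 without WT 3, 1 without PIN 1 or PIN 2 and 0 without PIN 3. The share of all genes called in these fits is not reported here, so the lower counts do not set the 9 apart from other genes. DESeq2 called 6 of the 9 higher in either comparison, where it called 9.4% of all genes higher against WT and 6.88% against PIN, adding *Ccnd1*, *Ccne1* and *Ccne2* against WT (adjusted p = 0.0102, 0.00924 and 0.0202) and *Ccnd1* and *Ccne1* against PIN (adjusted p = 0.00715 and 0.00727). In both comparisons 7 of the 9 had every PCa library above every library of the other group, which 17.7% of genes showed against WT and 21.1% against PIN. In PIN against WT edgeR called 0 of the 9, as it called 0% of all genes, and 2 of the 9 (*Ccna2* and *Ccnb2*) had an unadjusted p under 0.05, as did 3.51% of all genes. DESeq2 and limma-trend also called 0 of the 9 there, with 3 and 1 at an unadjusted p under 0.05. In bulk tissue a larger share of dividing cells and more RNA per cell cannot be told apart.

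**Figure D1:**
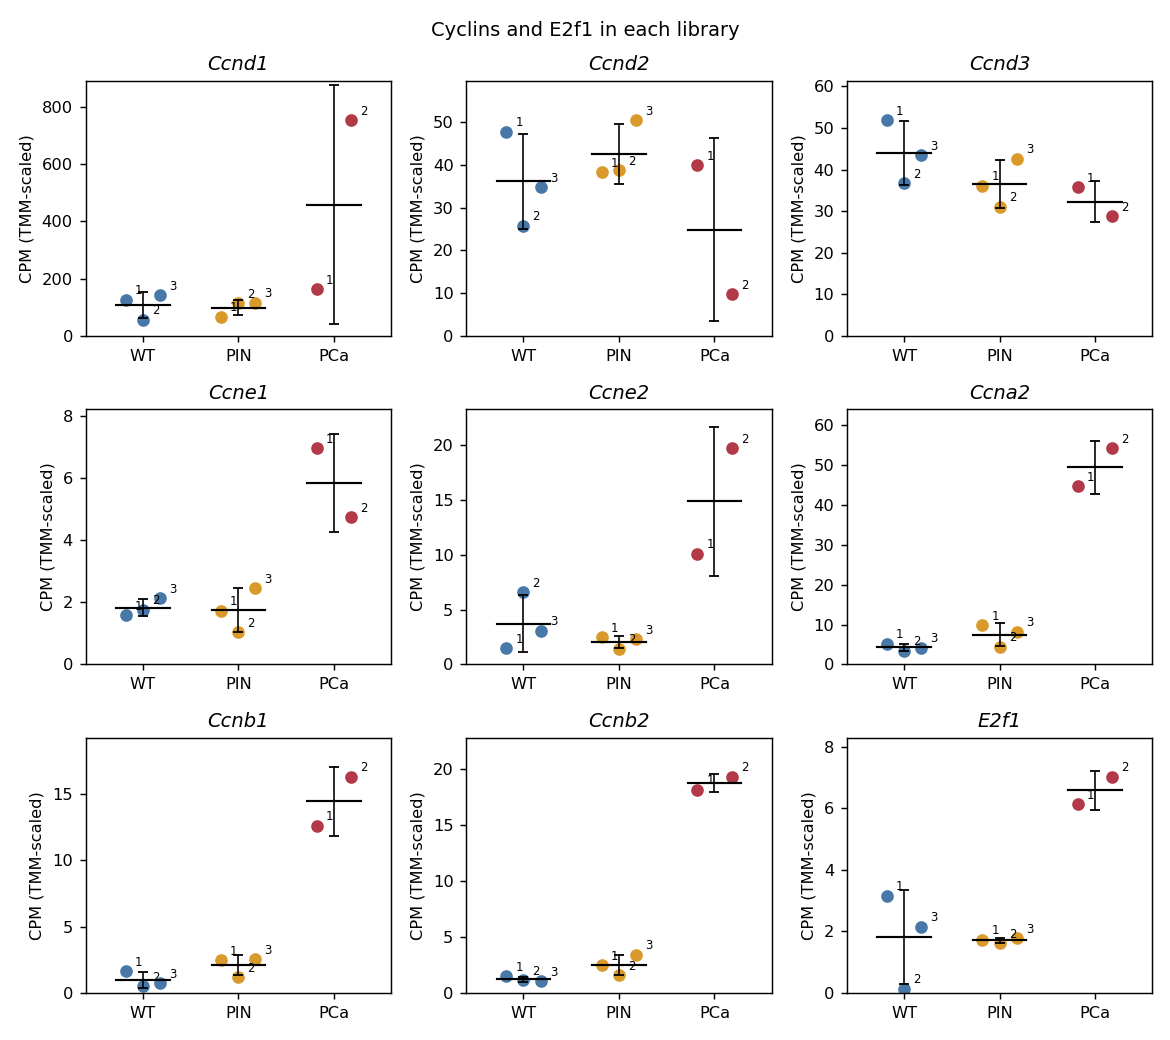
TMM-scaled CPM of each gene (y axis, starting at 0) in WT, PIN and PCa; points are libraries with their replicate number, and bars are the group mean and SD. *Ccna2*, *Ccnb1* and *Ccnb2* of both PCa libraries lie far above the other 6 libraries, and the PCa libraries disagree for *Ccnd1* (163 and 754 CPM) and *Ccnd2* (39.9 and 9.70 CPM).

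Per unit of length, the D-type cyclins were the most abundant of the 9 transcripts in WT. *Ccnd1* stood at 89.3 ± 46.5 TPM (SD, n = 3), *Ccnd3* at 59.7 ± 17.0 TPM and *Ccnd2* at 19.5 ± 7.74 TPM, and only the first pair overlapped. The other 6 had WT means of 0.704 to 3.75 TPM, and each overlapped its neighbour in the order *Ccna2*, *Ccne2*, *Ccnb2*, *Ccne1*, *E2f1* and *Ccnb1*. In PIN the order began in the same way, and *Ccna2* at 7.24 ± 2.66 TPM and *Ccnb2* at 5.46 ± 1.82 TPM overlapped each other and lay above the other 4. In PCa *Ccna2* at 54.9 ± 8.99 TPM (SD, n = 2) and *Ccnb2* at 47.4 ± 3.37 TPM stood near *Ccnd3* (55.5 ± 6.99 TPM). The range of *Ccna2* overlapped those of both others, and *Ccnb2* lay below *Ccnd3* in both libraries. *Ccnd1* alone stood above them, at 162 and 780 TPM.

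*Ccnd1* encodes cyclin D1, the D-type cyclin most often amplified in tumors. Its level was 126, 56.9 and 143 CPM in WT 1 to 3, 67.7, 114 and 116 CPM in PIN 1 to 3, and 163 and 754 CPM in PCa 1 and 2. WT and PIN overlapped throughout, both PCa libraries lay above them, and PCa 1 lay only just above WT 3. The fitted log2 fold change was 2.08 ± 0.64 (SE) against WT (adjusted p = 0.0845) and 2.21 ± 0.64 against PIN (adjusted p = 0.0891), and neither was called. The 2 PCa libraries decided this value: without PCa 1 it was 2.80 against WT and 2.94 against PIN, called in both (adjusted p = 0.00999 and 0.00926), and without PCa 2 it was 0.59 and 0.73. *Ccnd1* shares 818 bases with *Oraov1* on the other strand, whose level stayed between 21.5 and 32.1 CPM in the 8 libraries, and whether the counting used strand is not stated.

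*Ccnd2* encodes cyclin D2. It stood at 47.8, 25.8 and 34.8 CPM in WT, 38.3, 38.7 and 50.5 CPM in PIN, and 39.9 and 9.70 CPM in PCa 1 and 2. PCa 1 lay among the WT and PIN libraries and PCa 2 below all of them. The log2 fold change was -0.54 ± 0.55 (adjusted p = 0.568) against WT and -0.78 ± 0.55 (adjusted p = 0.451) against PIN. Without PCa 1, *Ccnd2* was called lower, at -1.89 against WT (adjusted p = 0.0217) and -2.12 against PIN (adjusted p = 0.0171), and without PCa 2 it was 0.15 and -0.07.

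*Ccnd3*, which encodes cyclin D3, varied least of the 9. Its level was 52.0, 36.7 and 43.4 CPM in WT, 36.1, 31.1 and 42.6 CPM in PIN, and 35.8 and 28.8 CPM in PCa. Both PCa libraries lay below all WT libraries, as for 19.6% of all genes, and overlapped PIN. The log2 fold change against WT was -0.45 with a 95% interval of -1.02 to 0.12 (adjusted p = 0.278), and against PIN it was -0.18, from -0.74 to 0.38 (adjusted p = 0.714). Its transcript has a copy at chr4:138900315-138902142 (mm9), 95.5% identical over 1843 aligned bases, so reads may be split or dropped there. *Bysl*, on the other strand, shares 353 bases with it.

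The makeup of the D-type transcripts differed between the PCa libraries. Summed over the 3 genes, they came to 88.9 to 212 TPM in WT, 139 to 189 TPM in PIN, and 249 and 837 TPM in PCa 1 and 2. These sums carry no correction for library composition. *9530053A07Rik* took 13.1% to 22.1% of the counts in WT and PIN libraries, whereas the top genes of PCa 1 and PCa 2 took 1.06% and 1.43%. In CPM *Ccnd3* of both PCa libraries lay below all WT libraries, but in TPM (60.5 and 50.6) above WT 2 (40.6). The part of scaling in the sums was not tested. *Ccnd1* supplied 41.6% to 59.5% of the D-type sum in WT, 43.7% to 59.2% in PIN, 65.1% in PCa 1 and 93.2% in PCa 2. *Ccnd2* supplied 9.76% to 16.6% in the 6 WT and PIN libraries, 10.7% in PCa 1 and 0.806% in PCa 2. The PCa libraries lay further apart in the *Ccnd1* share than PCa 1 lay from any WT or PIN library, and no test was run on these shares.

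**Figure D2:**
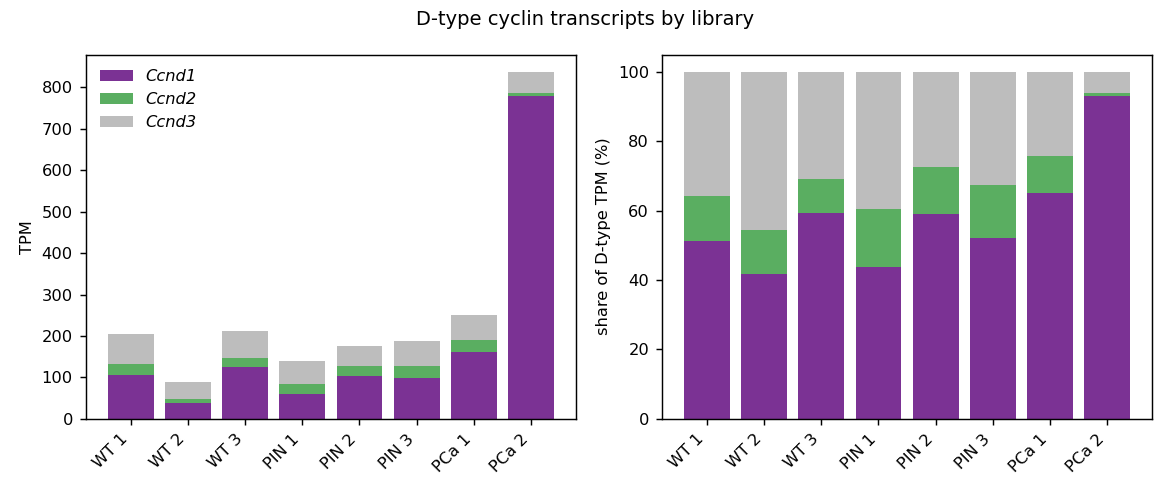
Stacked bars give the TPM of *Ccnd1*, *Ccnd2* and *Ccnd3* in each library (left) and their share of the D-type sum in percent (right). *Ccnd1* takes 93.2% of the sum in PCa 2, against 41.6% to 65.1% in the other 7 libraries.

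*Ccne1* and *Ccne2* encode the E-type cyclins, which carry cells into S phase. *Ccne1* stood at 1.58, 1.77 and 2.12 CPM in WT, 1.73, 1.03 and 2.45 CPM in PIN, and 6.95 and 4.73 CPM in PCa. WT and PIN overlapped, and both PCa libraries lay above them. The log2 fold change was 1.68 ± 0.48 against WT and 1.75 ± 0.48 against PIN, with adjusted p of 0.0721 and 0.0791, so neither was called by edgeR. Leaving out each library in turn gave 1.38 to 1.93 against WT and 1.46 to 2.08 against PIN by edgeR, and it was called in none of these fits.

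*Ccne2* was at 1.48, 6.62 and 3.07 CPM in WT, 2.48, 1.45 and 2.30 CPM in PIN, and 10.1 and 19.7 CPM in PCa. WT spread over a wider range than PIN, with WT 2 the highest, and PCa lay above both. Against PIN it was called higher, with a log2 fold change of 2.84 ± 0.65 (7.17-fold, adjusted p = 0.0472), close to the threshold. It lost that call without WT 3, PIN 1, PIN 2, PIN 3 or PCa 2, with log2 fold changes of 2.84, 3.01, 2.64, 2.92 and 2.30 and adjusted p of 0.0874, 0.125, 0.156, 0.166 and 0.103, and with either other filter on low counts (adjusted p = 0.0539 and 0.0519) or a fit of the PIN and PCa libraries alone (0.0519). Against WT it was 2.00 ± 0.63 (adjusted p = 0.0913), and without WT 2 it was called, at 2.70 (adjusted p = 0.0441). *Ccne2* shares 5622 bases with *Ints8* on the other strand. *Ints8* was at 97.7 CPM in WT 2, its highest level, against 33.4 and 52.4 CPM in WT 1 and WT 3, and at 36.7 and 66.4 CPM in PCa, and its part in the *Ccne2* counts was not tested.

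*Ccna2* encodes cyclin A2, the partner of CDK2 and CDK1 in S phase and G2. Its level was 5.24, 3.49 and 4.17 CPM in WT, 9.86, 4.41 and 8.25 CPM in PIN, and 44.7 and 54.2 CPM in PCa. PIN 1 and PIN 3 lay above all WT libraries, PIN 2 lay among them, and PCa was far above all. It rose by a log2 fold change of 3.52 ± 0.38 against WT (adjusted p = 0.00644) and 2.72 ± 0.37 against PIN (6.59-fold, adjusted p = 0.0133). The call against WT held without each library in turn, with log2 fold changes of 3.38 to 3.69, and the call against PIN was lost without PIN 3 (2.79, adjusted p = 0.0675). *Exosc9*, which shares 864 bases with it on the other strand, was at 12.7 to 28.9 CPM in the 8 libraries.

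*Ccnb1* encodes cyclin B1, which with CDK1 triggers entry into mitosis. It stood at 1.63, 0.498 and 0.732 CPM in WT, 2.48, 1.21 and 2.52 CPM in PIN, and 12.6 and 16.3 CPM in PCa. PIN 2 lay below WT 1, the other PIN libraries above all WT libraries, and PCa above all. The WT values rest on 33, 11 and 20 reads and the PCa values on 392 and 475 reads. It rose by 3.92 ± 0.61 on the log2 scale against WT (adjusted p = 0.0126) and by 2.80 ± 0.58 against PIN (6.97-fold, adjusted p = 0.0364). A fit of the 2 groups compared alone lost both calls (adjusted p = 0.0697 against WT and 0.0501 against PIN). Without WT 3 both were lost as well (3.76, adjusted p = 0.0577, and 2.80, adjusted p = 0.0692). Against PIN the call was also lost without PIN 1, PIN 2, PIN 3 or PCa 2 (2.97, 2.53, 2.97 and 2.62, adjusted p = 0.105, 0.124, 0.131 and 0.0643). The *Ccnb1* transcript has 3 near-identical stretches elsewhere in mm9, at chr14:9241350-9243195 (97.6% identical), chr4:118614556-118616059 (98.3%) and chr7:49361154-49362678 (99.1%), none of them a gene of the table, so its counts are uncertain.

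*Ccnb2* encodes cyclin B2, the B-type cyclin associated with the Golgi. Its level was 1.48, 1.13 and 1.06 CPM in WT, 2.48, 1.58 and 3.43 CPM in PIN, and 18.2 and 19.3 CPM in PCa. It was the only one of the 9 with every PIN library above every WT library, as for 6.48% of all genes. Against WT it rose by 3.93 ± 0.42 on the log2 scale in PCa (adjusted p = 0.00644), with 3.84 to 4.09 when each library was left out. Against PIN it rose by 2.91 ± 0.41 (7.50-fold, adjusted p = 0.0141), a call lost without PIN 1, PIN 2 or PIN 3 (2.92, 2.66 and 3.20, adjusted p = 0.0583, 0.0503 and 0.0514).

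*E2f1* encodes the E2F factor released by the retinoblastoma protein. It stood at 3.16, 0.136 and 2.16 CPM in WT, 1.73, 1.62 and 1.77 CPM in PIN, and 6.15 and 7.03 CPM in PCa. The low value of WT 2 rests on 3 reads, against 64 and 59 in WT 1 and WT 3. WT 2 also had the lowest endothelial marker sum (15.0 CPM over 5 genes, against 59.1 to 150 CPM in the others) and the highest luminal sum (34274 CPM). Its smooth muscle, fibroblast and leukocyte sums (2021, 521 and 37.1 CPM) were the lowest among the WT and PIN libraries. The part of tissue makeup in the *E2f1* value of WT 2 was not tested. Both PCa libraries lay above all others, and the 3 PIN libraries fell inside the WT range with an SD of 0.0782 CPM. The log2 fold change was 1.85 ± 0.93 against WT (adjusted p = 0.242) and 1.95 ± 0.93 against PIN (adjusted p = 0.262). Without WT 2 it was 1.31 against WT (adjusted p = 0.0923), not called, and 1.95 against PIN (adjusted p = 0.0278), called.

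**Figure D3:**
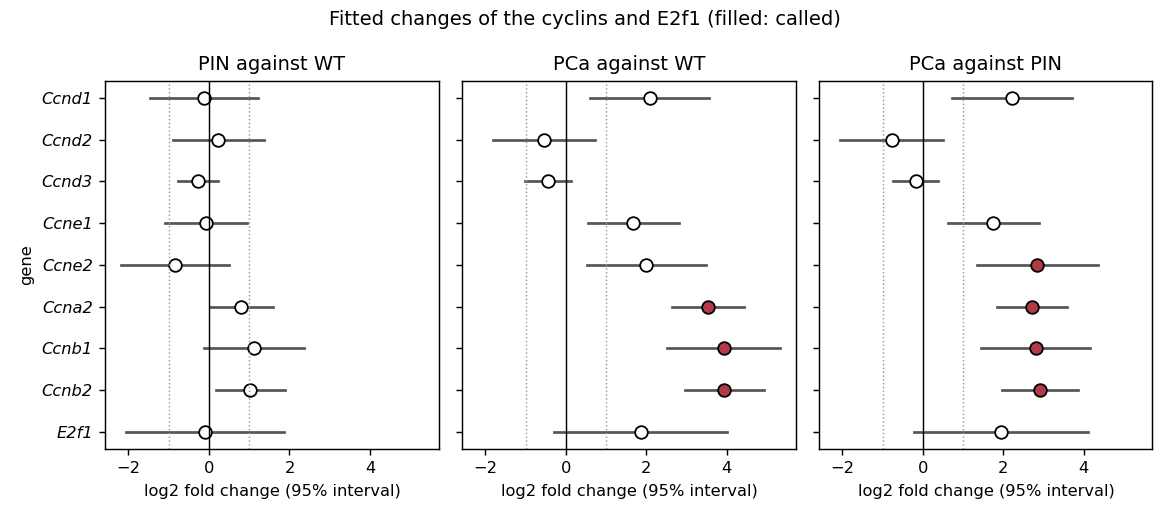
Fitted log2 fold changes (x axis) with 95% intervals for the 9 genes (y axis) for PIN and PCa, each against WT, and for PCa against PIN; filled points are called and dotted lines mark a log2 fold change of 1 in either direction. Filled points are *Ccna2*, *Ccnb1* and *Ccnb2* in both PCa comparisons and *Ccne2* in PCa against PIN alone, whose difference between the comparisons was not tested.

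PIN took no called step from WT in any of the 9 genes, yet its libraries differed among themselves. The log2 fold change was 1.03 with a 95% interval of 0.16 to 1.89 for *Ccnb2*, 0.80 from 0.02 to 1.59 for *Ccna2* and 1.12 from -0.12 to 2.36 for *Ccnb1*, all with an adjusted p of 1. For the other 6 it ran from -0.84 (*Ccne2*) to 0.23 (*Ccnd2*). In PIN 1 and PIN 3 *Ccna2*, *Ccnb1* and *Ccnb2* were higher than in PIN 2, and so was *Mki67*, at 49.6 and 43.0 against 19.5 CPM (16.1 to 20.3 CPM in WT). Summed basal epithelial markers were at 363 and 387 CPM in PIN 1 and PIN 3 and 178 CPM in PIN 2 (167 to 216 CPM in WT). The keratins *Krt15* (220, 68.2 and 196 CPM in PIN 1 to 3) and *Krt5* (86.8, 55.4 and 122 CPM) carried most of this, whereas *Trp63*, the p63 gene of basal cells, was at 38.3, 39.8 and 42.9 CPM. PIN 2 also had the lowest sums of smooth muscle markers (3197 against 4034 and 5859 CPM) and fibroblast markers (759 against 866 and 986 CPM) and the highest of leukocyte markers (108 against 56.0 and 48.4 CPM). The part of these differences in the cyclin levels was not tested.

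Read against *Mki67*, the proliferation antigen present in cycling cells, the cyclins differed from each other. *Mki67* itself rose in PCa by 3.85 ± 0.40 on the log2 scale against WT (adjusted p = 0.00602), from 16.1 to 20.3 CPM in WT to 223 and 305 CPM. The TPM of *Ccna2* was 51.0% to 74.0% of that of *Mki67* in all 8 libraries, and at 57.6% and 51.0% both PCa libraries lay below the WT range of 62.3% to 74.0%. That of *Ccnb2* was 32.7% to 53.4%, with WT, PIN and PCa overlapping. *Ccnb1* was at 7.40% to 19.2%. *Ccnd3* went from 1019% to 1142.5% in WT over 325% to 713% in PIN to 71.8% and 42.1% in PCa 1 and 2. *Ccne1* went from 29.5% to 43.2% in WT to 11.8% and 5.87% in PCa. *E2f1* was at 49.7% and 37.1% in WT 1 and WT 3 but 2.70% in WT 2, at 11.1% to 26.6% in PIN and at 8.82% and 7.36% in PCa, so PIN and PCa did not overlap. These ratios describe unequal change within a library, with no test.

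**Figure D4:**
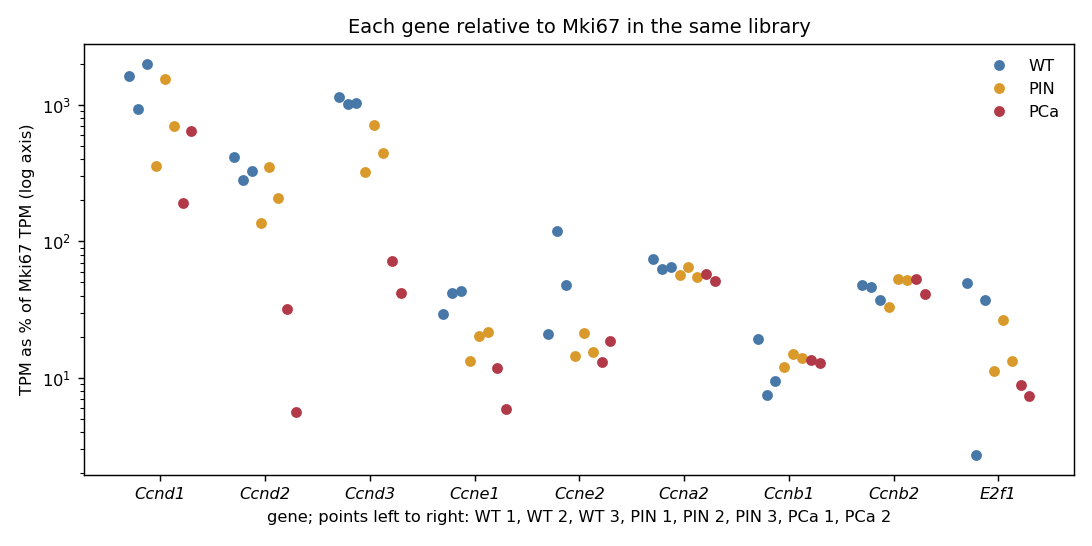
TPM of each gene as a percentage of the TPM of *Mki67* in the same library (log axis), with 1 point per library colored by group. *Ccna2*, *Ccnb1* and *Ccnb2* spread less over the libraries than *Ccnd2* and *Ccnd3*, which are lowest in the 2 PCa libraries.

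The profiles over the 8 libraries were compared by the root mean square (RMS) difference of centered log2 CPM. The 3 genes of S phase, G2 and mitosis lay within 0.25 to 0.33 of each other, whereas *Ccnd1* and *Ccnd2* were 1.64 apart. Nearest to *Ccna2* among the other genes tested were *Nusap1* (0.09), *Prc1* (0.14) and *Kif4* (0.15), which encode spindle and midzone proteins. Nearest to *Ccnb1* were *Racgap1* (0.17), *Ckap2* (0.18) and *Cdc25c* (0.23), and nearest to *Ccnb2* were *Kif4* (0.16), *Tpx2* (0.17) and *Pif1* (0.20). For *Ccne1* they were *E2f2* (0.23), *Stmn1* (0.24) and *Pask* (0.25). *Ccnd2* was nearest to *Fstl1* (0.13), *A830082K12Rik* (0.15) and *Heg1* (0.16), and *Ccnd3* to *Tmem107*, *Hmg20b* and *Ttc7* (0.08 each). For *Ccnd1* the nearest were *Sh3bp1* (0.32), *Lbr* (0.36) and *Slc29a1* (0.36), for *Ccne2* *Mex3b* (0.37), *Gm16064* (0.44) and *Phf16* (0.46), and for *E2f1* *Kifc5b* (0.32), *Acsbg1* (0.39) and *Dll4* (0.42). *Lbr*, which encodes the lamin B receptor, shared the gap between the PCa libraries with *Ccnd1*, at 26.9 CPM in PCa 1 and 160 CPM in PCa 2. *Kifc5b*, *Acsbg1* and *Dll4* shared with *E2f1* their lowest level in WT 2. The nearest genes were picked by these same profiles, so such sharing follows from the choice and is no separate result.

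The other genes of the cell cycle were described by 7 lists, of which 101 of 105 records were tested. In PCa against WT 36 were called higher and 0 lower by edgeR, with 3 lower at an unadjusted p under 0.05, and DESeq2 called 48 higher and 2 lower and limma-trend 35 higher and 1 lower. In PCa against PIN edgeR called 26 higher and 0 lower, with 3 lower at an unadjusted p under 0.05, and DESeq2 and limma-trend called 45 and 27 higher and 0 lower. In PIN against WT it called 0, as did DESeq2 and limma-trend, with 5 higher and 1 lower at an unadjusted p under 0.05. The median log2 fold change of all 14034 genes tested was 0.01, 0.07 and -0.02 in these 3 comparisons, and 7107, 7615 and 6736 had a positive fold change. By edgeR 4.35% of all genes were called higher against WT and 2.55% against PIN. Every PCa library lay above every WT library for 17.7% and above every PIN library for 21.1%. The share of all genes called by limma-trend, or called lower by DESeq2, is not reported here. Without WT 1, which held most seminal vesicle transcripts, the edgeR count of list genes against WT was 21, and without WT 3 or PIN 3 it was 20 and 23. The count against PIN was 9 without WT 3, 2, 3 and 1 without PIN 1, 2 and 3, and 40 and 16 without PCa 1 and 2.

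All 9 proliferation markers were called higher in PCa against WT (median log2 fold change 3.60). Against PIN 8 of 9 were called higher, and all 9 had a positive fold change (median 2.82). *Aurka*, a kinase of the mitotic spindle, had the largest fitted change (5.73 ± 0.96, adjusted p = 0.0157) and the widest gap within PCa, at 142 CPM in PCa 1 and 11.5 CPM in PCa 2, against 1.09 to 3.77 CPM in the other 6 libraries. *Bub1*, *Birc5*, *Tpx2*, *Cenpa*, *Plk1* and *Aurkb*, which serve the spindle, the kinetochore and cytokinesis, rose by 3.06 to 3.67 on the log2 scale. *Top2a*, which untangles replicated DNA, rose by 2.19 ± 0.30 (adjusted p = 0.00933). *Plk1* was the marker not called against PIN (2.64 ± 0.63, adjusted p = 0.0521).

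Of the 20 E2F target genes of DNA replication, 13 were called higher in PCa against WT and 8 against PIN. Every one had a positive fold change in both, with medians of 1.87 and 1.58. *Mcm3* and *Mcm5*, subunits of the replicative helicase, rose against WT by 2.68 ± 0.49 and 2.62 ± 0.41 (adjusted p = 0.0210 and 0.0129). *Mcm5* stood at 3.08 to 7.39 CPM in WT, 6.13 to 9.61 CPM in PIN and 27.2 and 35.7 CPM in PCa, so PCa lay above all other libraries. In PIN against WT 19 of the 20 had a positive fold change, with a median of 0.30, and none was called. Of all 14034 genes tested, 6736 had a positive fold change there.

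Among the 19 genes for E2F factors, pocket proteins and the DREAM complex, 6 were called higher in PCa against WT and 4 against PIN. The medians were 0.51 and 0.39. The largest rises were those of *E2f8* (3.36 ± 0.53, adjusted p = 0.0134) and *E2f7* (2.66 ± 0.50, adjusted p = 0.0232), the atypical E2F factors, which repress E2F target genes. *Foxm1*, the transcription factor for late cell cycle genes, followed (1.88 ± 0.34, adjusted p = 0.0201). *E2f8* stood at 0.816 to 1.79 CPM in WT, 1.03 to 2.56 CPM in PIN and 11.2 and 15.6 CPM in PCa, so PCa lay above all other libraries.

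Of the 13 genes for CDKs and their activators, 2 were called higher in PCa against both WT and PIN. In either comparison 8 of the 13 had a positive fold change, with medians over the list of 1.05 and 0.78. *Cdk1*, the kinase partner of the B-type cyclins, rose by 3.20 ± 0.45 against WT and 2.46 ± 0.44 against PIN (adjusted p = 0.0103 and 0.0277), from 3.04 to 3.86 CPM in WT to 36.2 and 28.1 CPM in PCa. *Cdc25c*, the phosphatase that activates CDK1, rose by 4.45 ± 0.63 and 2.96 ± 0.59 (adjusted p = 0.0103 and 0.0335). The G1 kinase gene *Cdk4*, shown after its values were seen, stood at 78.3 to 82.0 CPM in WT and 102 CPM in both PCa libraries (0.36 ± 0.16, adjusted p = 0.207).

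Of the 6 CDK inhibitors tested, 1 was called higher in PCa against WT and none against PIN. All 6 had a positive fold change in both, with medians of 2.47 and 2.77. *Cdkn2d*, at 0.0906 to 0.346 CPM, did not pass the expression filter and was not tested. The one called was *Cdkn2a*, the locus of p16 and p19ARF, which act on CDK4 and on p53. It had 1, 1 and 0 reads in WT, 3, 17 and 2 in PIN, and 59 and 64 in PCa (adjusted p = 0.0293). *Cdkn1a* (p21), shown after its values were seen, was at 5.39 to 35.9 CPM in WT, 10.4 to 24.7 CPM in PIN, and 65.6 and 172 CPM in PCa (2.88 ± 0.87, adjusted p = 0.0805).

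Of the 17 records for ubiquitin ligases that destroy cyclins, 4 were called higher in PCa against WT and 3 against PIN, with medians of 0.10 and 0.19. *Ube2c*, the ubiquitin-conjugating enzyme of the anaphase-promoting complex, rose by 3.36 ± 0.57 (adjusted p = 0.0165), and the activator *Cdc20* of this complex by 3.06 ± 0.48 (adjusted p = 0.0131). *Fbxo5*, which encodes the inhibitor EMI1 of the same complex, rose by 2.54 ± 0.38 (adjusted p = 0.0116). Of the 17 other cyclins tested, 1 was called higher in both comparisons, with medians of -0.02 and -0.01. This was *Ccnf* (cyclin F, a substrate receptor of an SCF ubiquitin ligase), at 1.63 to 2.04 CPM in WT, 1.55 to 2.34 CPM in PIN, and 10.8 and 11.0 CPM in PCa (2.58 ± 0.37 against WT, adjusted p = 0.0103).

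**Figure D5:**
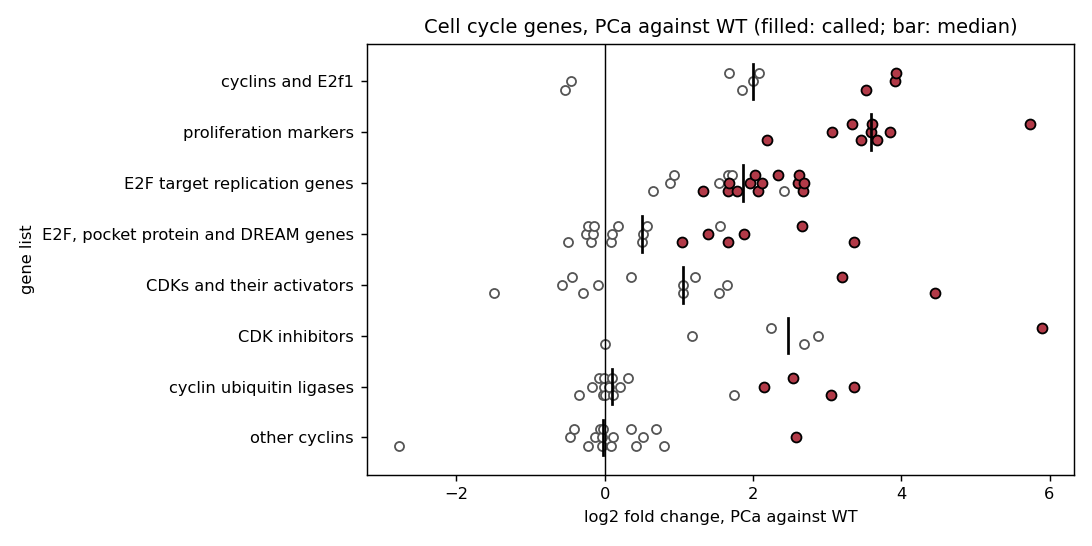
Fitted log2 fold changes in PCa against WT (x axis) for each gene of the 7 cell cycle lists and for the 8 cyclins with *E2f1* (y axis); filled points are called and the bar is the median of the list. Proliferation markers are all filled around a median of 3.60, and the other cyclins center on -0.02 with *Ccnf* as the filled point.

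The smooth muscle markers fell in PCa, with 6 of 6 called lower against WT (median log2 fold change -6.86) and 6 of 6 against PIN (-7.12). The 4 basal markers, with medians of 0.30 and -0.03, were not called. Of the 8 leukocyte markers tested, 1 was called higher in PCa, *S100a8*, at 36.5 CPM in PCa 1 and 5.52 CPM in PCa 2. At 0 to 0.0989 CPM in WT and PIN, *S100a8* passed the expression filter only through PCa. The leukocyte list summed to 207 and 28.5 CPM in PCa 1 and PCa 2 against 37.1 to 108 CPM in WT and PIN. *Ccna2*, *Ccnb1* and *Ccnb2* were at least as high in PCa 2 as in PCa 1. Among the tissue marker sums, that of endothelium alone was higher in PCa 2 (150 against 114 CPM in PCa 1). The others were lower there, such as leukocytes (28.5 against 207 CPM) and basal epithelium (27.4 against 604 CPM). The part of these changes in tissue makeup in the cyclin levels was not tested.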

How the data were processed

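RNA of 3 WT, 3 PIN and 2 PCa prostate samples was sequenced as paired-end reads after ribosomal RNA removal. The authors removed adapters with cutadapt 1.9.1, aligned reads to mm9 with HISAT2 2.1.0 and deposited raw counts per gene from HTSeq 0.6.1. The strand setting and annotation release are not given in the sources used here. The deposited exon length gave TPM, to which TMM was not applied. From these counts, edgeR 4.0.16 (R 4.3.3, TMM, genes with CPM above 1 in at least 2 samples) fitted 1 model over all 8 libraries with 5 residual degrees of freedom. Totals were 21751803 to 29730420 reads, and the common biological coefficient of variation was 0.489. Named were the 9 genes, the called genes with the 3 largest rises and falls of each cell cycle list, all proliferation markers and the 3 nearest profiles (0.1 added to CPM); some genes of this rule are not reported here. The genes and lists were chosen with earlier results of these data known. Alternatives were upper-quartile scaling, DESeq2 1.42.0, limma-trend (limma 3.58.1), other filters, 2 groups only, a replicate block, no fold limit and each library left out. Near-identical copies are mm9 stretches of at least 500 bases and 95% identity. Promoters are RefSeq windows on GRCm38.p6.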

Additional observations from a re-analysis of the deposited data

How the results depend on the processing

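Of 432 repeats of the 27 fitted changes under alternatives, 389 kept direction and side of the threshold, 23 lost and 11 gained a call and 9 turned sign. The alternative without a fold limit reused the main fit, so its repeats could lose no call and turn no sign. Leaving out a library of the group not compared left fold changes nearly the same. These repeats add to the count that stayed the same. DESeq2 called 6 of the 9 genes when PCa was set against WT, and 45 list genes when it was set against PIN. With only the 2 groups compared, 2 of the 9 genes were called in PCa against PIN, and 7 and 8 list genes against WT and PIN. Apart from genes called higher in PCa by DESeq2, the share of all genes called under an alternative is not reported here. With the replicate number as a block, 1 of the 9 (*Ccna2*) was called in PCa against PIN, with *Ccne2*, *Ccnb1* and *Ccnb2* lost (adjusted p = 0.132, 0.0943 and 0.0580 by edgeR), and 22 and 3 list genes against WT and PIN. The labels share only a number, and same-numbered libraries had residual correlations of -0.0389 to 0.265 over 7 pairs, with 5 of 8 libraries correlating best with their own number. With each library left out in turn, 2 to 5 of the 9 genes were called in PCa against WT, 0 to 6 in PCa against PIN and 0 in PIN against WT, and 20 to 42, 1 to 40 and 0 of the list genes. Values that turned sign were those in PIN against WT of *Ccnd1* (-0.44 to 0.12 with libraries left out), *Ccne1* (-0.40 to 0.19) and *E2f1* (-0.64 to 0.56, 0.22 with the block and 0.63 with limma-trend), and *Ccnd2* in PCa against WT (-1.89 to 0.15). The cause was not tested. Libraries held as few as 11 reads of *Ccnb1*, 25 of *Ccnb2*, 30 of *Ccne1* and *Ccne2* and 3 of *E2f1*.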
